A study of Rattus norvegicus with 2 samples.

Results

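The miR-17-92 cluster, its paralog miR-106b-25 and the single gene of rno-miR-92b were examined on miRNA arrays of the rat nucleus accumbens (NAc). The members were the 10 probes named rno-miR-17, rno-miR-18a, rno-miR-19a, rno-miR-19b, rno-miR-20a, rno-miR-25, rno-miR-92a, rno-miR-92b, rno-miR-93 and rno-miR-106b, taken by exact name from the 349 miRNA probes of the arrays. Passenger strands, whose names end in a star, were not members. To ask which miRNAs differ in the NAc after alcohol, male Sprague-Dawley rats received vehicle or alcohol by intraperitoneal injection, and RNA of the NAc, core and shell, was hybridised to 1-colour arrays. Vehicle rats were adult, weighed 150 to 180 g and received injections of 500 ul saline, bid, for 7 days. Alcohol rats were adult males of the same strain and weight range that received alcohol at 1 g/kg, bid, for 7 days. The experiment used 18 rats, and whether the RNA of several rats was pooled on an array is not stated. Each group had 1 array, so no difference below has a replicate check, no test was run, and precision is limited by the number of arrays.

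The miR-17-92 cluster is a polycistron: a single primary transcript is processed into several mature miRNAs. Its members fall into seed families, and members of a family share the bases that pair with target mRNAs, whichever cluster they come from. In the nervous system the cluster is known for promoting the proliferation of neural progenitors, and the miR-106b-25 cluster lies within Mcm7, a gene of the DNA replication licensing complex.

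The mature sequences of all 10 members are shown because members of a family differ by few bases and the array reads each with a probe of its own. They are written 5′ to 3′ with the seed, bases 2 to 8, in capitals. Sequences and positions came from RefSeq on the GRCr8 assembly, where 10 of 10 target sequences of the arrays had an exact match. The 17 family, known for repressing the cell cycle inhibitor Cdkn1a, comprised these 4 members:
rno-miR-17: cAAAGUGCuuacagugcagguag
rno-miR-20a: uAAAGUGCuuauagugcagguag
rno-miR-106b: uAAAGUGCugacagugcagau
rno-miR-93: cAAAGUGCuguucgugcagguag
The 18 family, represented by 1 member, differs from the 17 family by 1 seed base:
rno-miR-18a: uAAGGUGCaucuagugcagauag
The 19 family comprised these 2 members:
rno-miR-19a: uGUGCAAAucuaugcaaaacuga
rno-miR-19b: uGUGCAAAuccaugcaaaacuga
The 92 family comprised these 3 members:
rno-miR-25: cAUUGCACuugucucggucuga
rno-miR-92a: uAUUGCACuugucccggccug
rno-miR-92b: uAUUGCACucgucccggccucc

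The miR-17-92 cluster occupied chr15:98587861-98588622 on the plus strand, a span of 762 bases from the first to the last mature base, and held rno-miR-17, rno-miR-18a, rno-miR-19a, rno-miR-20a, rno-miR-19b and rno-miR-92a in that order. Of these, 3 had a second exact match in the miR-106a-363 cluster on the X chromosome: rno-miR-17 at chrX:137343615-137343637, rno-miR-19b at chrX:137343070-137343092 and rno-miR-92a at chrX:137342945-137342965, all on the minus strand. The signal of these 3 probes therefore cannot be assigned to one of the 2 clusters. The miR-106b-25 cluster spanned 472 bases at chr12:22156652-22157123 on the minus strand, and rno-miR-92b lay apart at chr2:176931663-176931684 on the minus strand.

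Every miRNA probe was printed as 9 spots on each array, and the value of a spot is its density in arbitrary units. Detection was judged against 88 control spots with mismatched probes: the limit was their median plus 3 scaled median absolute deviations, 278 for vehicle and 179 for alcohol, and a probe counted as detected if 5 or more of its 9 spots lay above it. By this rule the vehicle array had 151 detected probes and the alcohol array 196, of which 150 were shared. The arrays differed in overall brightness: for the 150 shared miRNAs the median density was 952 with vehicle and 1951 with alcohol, while the mismatched control spots had a median of 241 and 145. Raw densities are given for each member as measured and carry this difference in brightness. Log2 ratios are alcohol over vehicle, after a cyclic loess over all miRNA probes unless stated otherwise. Their SD is over the 9 spots of a probe and covers technical error within an array only. After the loess, the median log2 ratio of the 150 miRNAs was -0.07, against 0.57 without normalization.

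Of the 10 members, 7 were detected on both arrays, 1 on the alcohol array alone and 2 on neither. All 4 members of the 17 family were detected with 9 of 9 spots on both arrays. The spots of rno-miR-17, a known repressor of E2f1, ran from 372 through a median of 407 to 459.8 on the vehicle array and from 614 through 718 to 751 on the alcohol array. For rno-miR-20a, which shares the E2f1 site, the vehicle spots ran from 435 through 480.0 to 543 and the alcohol spots from 673 through 831 to 916. In both probes every alcohol spot was brighter than every vehicle spot, before any normalization. After the loess the signal of rno-miR-17 was 417 with vehicle and 433 with alcohol, a log2 ratio of 0.05 ± 0.15. That of rno-miR-20a was 537 and 492, a log2 ratio of -0.13 ± 0.18. After the loess neither ratio was larger than its SD over spots, and 6 of 9 spots of rno-miR-17 were higher and 7 of 9 of rno-miR-20a lower on the alcohol array. Without normalization their log2 ratios were 1.16 and 1.03, beyond these SDs, so that the sign of rno-miR-20a turned. Over 15 ways of processing the arrays, the log2 ratio of rno-miR-17 was above 0 in 12, from -0.16 to 1.46, and that of rno-miR-20a in 6, from -0.34 to 1.34.

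The other members of the 17 family come from the miR-106b-25 cluster. The spots of rno-miR-106b ran from 378 through 402 to 473 on the vehicle array and from 736 through 796 to 813 on the alcohol array. For rno-miR-93 they ran from 420.1 through 507 to 540.4 on the vehicle array and from 618 through 668 to 736 on the alcohol array. Neither probe had overlapping spots, but the step between the arrays was smaller for rno-miR-93. The normalized signal of rno-miR-106b was 429 and 484, a log2 ratio of 0.17 ± 0.16, with 8 of 9 spots higher on the alcohol array. For rno-miR-93 it was 563 and 404, a log2 ratio of -0.48 ± 0.11, or 1.39-fold lower, with 9 of 9 spots lower. Within 1 seed family and 1 cluster, then, the loess gave ratios of opposite sign. The sign for rno-miR-93 turned without normalization, when its log2 ratio was 0.66, whereas rno-miR-106b had the higher ratio either way, and its log2 ratio was above 0 in 15 of 15 ways of processing, from 0.01 to 1.61.

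The 18 and 19 families were at or near background. The spots of rno-miR-18a, known in brain for repressing the glucocorticoid receptor, ran from 245 through 259 to 272 on the vehicle array and from 157 through 169 to 181 on the alcohol array. Of its 9 spots, 0 exceeded the vehicle limit and 1 the alcohol limit. The spots of rno-miR-19a ran from 228 through 244 to 258 and from 137.5 through 143 to 159, and none of the 9 exceeded the limit on either array. Both of these members were not well above background on either array, and no fold is given for them. For rno-miR-19b the spots ran from 244 through 261 to 284 on the vehicle array, where 1 of 9 exceeded the limit, and from 259 through 284 to 305 on the alcohol array, where 9 of 9 did. Its spots overlapped between the arrays in raw density, and the limits against which they were read differed. As rno-miR-19b was not well above background on the vehicle array, its normalized ratio, 1.17-fold higher with alcohol, is a fitted value and not a bound. The vehicle side was taken as its own signal or the lowest signal of a detected probe, whichever was higher. With no background correction its log2 ratio was 0.14, below the 0.23 of the main setting. Its log2 ratio was above 0 in 13 of 15 ways of processing the arrays, up to 0.99 with scaling to the 5S rRNA probes and 1.24 in the processed signals of the series. It was -0.52 with the arrays scaled to the median of detected miRNAs and -0.27 with scaling to the 75th percentile. Both its size and its sign thus depended on the scaling. As the vehicle side was not well above background, the values below 0 give no direction.

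All 3 members of the 92 family were detected with 9 of 9 spots on both arrays. The spots of rno-miR-25, from the miR-106b-25 cluster, ran from 662 through 746 to 971 on the vehicle array and from 901 through 1078 to 1235 on the alcohol array. For rno-miR-92a, known in neurons for repressing the AMPA receptor subunit GluA1, the vehicle spots ran from 502 through 589.8 to 874 and the alcohol spots from 1389.7 through 1663 to 1965. The spots of the arrays overlapped for rno-miR-25 and stood well apart for rno-miR-92a. The spots of rno-miR-92b, known for its presence in neural progenitors, ran from 3444 through 3764 to 4502 on the vehicle array and from 982 through 3676 to 4023 on the alcohol array. This probe had overlapping spots and nearly equal medians, while most detected miRNAs were brighter on the alcohol array. A single alcohol spot of rno-miR-92b, at 982, lay far below the other 8.

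After the loess the normalized signal of rno-miR-92a was 710.2 with vehicle and 1144 with alcohol, a log2 ratio of 0.69 ± 0.36, or 1.61-fold higher, with 9 of 9 spots higher. That of rno-miR-25 was 942 and 707, a log2 ratio of -0.41 ± 0.27, or 1.33-fold lower, with 9 of 9 spots lower. For rno-miR-92b it was 4533 and 2608, a log2 ratio of -0.80 ± 0.61, or 1.74-fold lower, with 9 of 9 spots lower. All 3 ratios were larger than their SD over spots. Leaving out the dim spot of rno-miR-92b, an alternative chosen after its value was seen, gave a log2 ratio of -0.56, and the median over spots gave -0.52. Among the 150 miRNAs detected on both arrays, 135 had a lower ratio than rno-miR-92a and 10 a lower ratio than rno-miR-92b. Without the dim spot 24 had a lower ratio than rno-miR-92b, and with the median over spots 25. Without normalization the log2 ratios were 1.66 for rno-miR-92a, 0.59 for rno-miR-25 and -0.28 for rno-miR-92b, so the sign of rno-miR-25 turned and the order of the 3 did not.

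**Figure D1:**
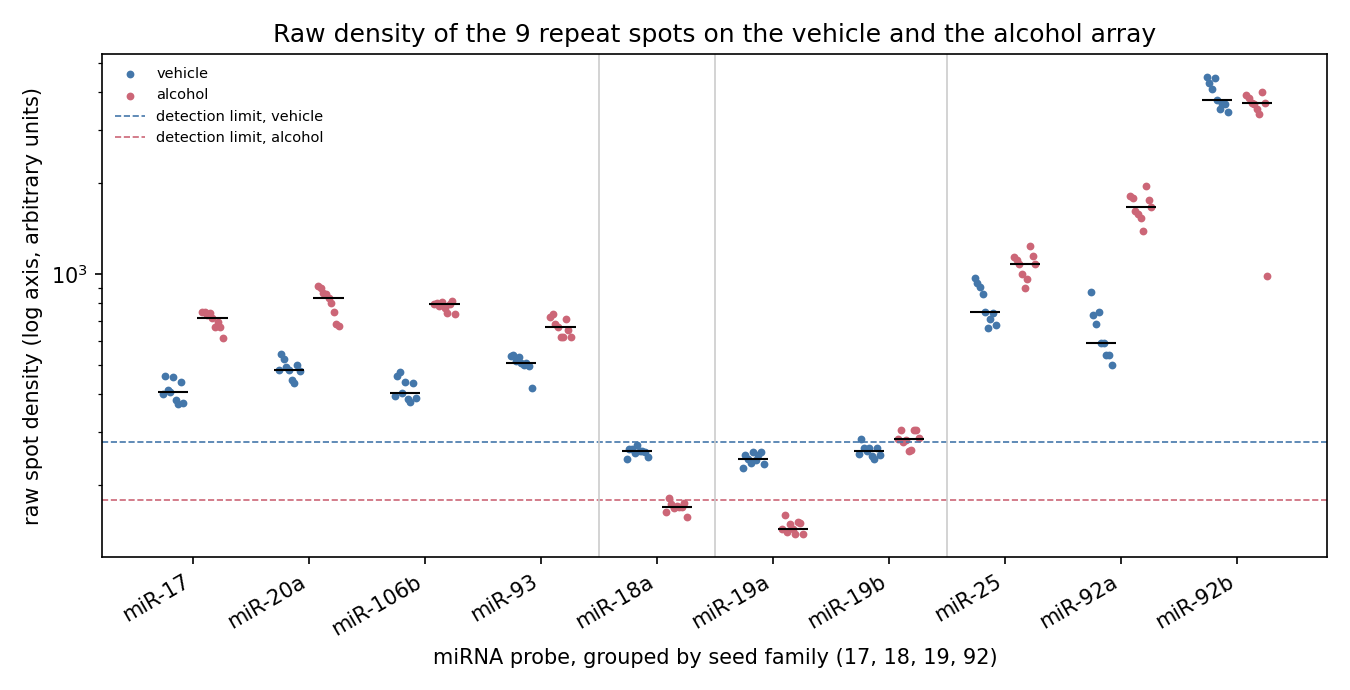
Raw spot density (arbitrary units, log axis) of the 9 repeat spots of each member on the vehicle (blue) and alcohol (red) array, 1 array per group, with black bars at the medians and dashed lines at the detection limits of 278 and 179. The spots of rno-miR-92a stand apart between the arrays (medians 589.8 and 1663), those of rno-miR-92b do not (medians 3764 and 3676), and rno-miR-18a and rno-miR-19a lie near or below both limits.

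Members were counted as higher or lower from a difference of 1.3-fold upwards, provided that 1 array or both detected them and that the brighter normalized signal reached 400. Of the 10 members 7 passed the filters on detection and signal; rno-miR-18a, rno-miR-19a and rno-miR-19b did not. Of these 7, 1 was higher on the alcohol array, rno-miR-92a, against 33 of 125 miRNAs tested, or 26.4%. Another 3 were lower, rno-miR-93, rno-miR-25 and rno-miR-92b, against 26 of 125, or 20.8%. With so few members neither count is a result about the members as a group. The split depended on the scaling: without normalization 6 members were higher, against 66.4% of the miRNAs tested, and 0 were lower, against 6.25%. With the arrays scaled to the median of detected miRNAs 1 was higher, against 13.8% of 123 miRNAs, and 3 were lower, against 64.2%. Over the 15 settings, the loess and 14 others, rno-miR-92a was counted as higher in 15, with log2 ratios from 0.45 to 1.96, and rno-miR-92b as lower in 12. The log2 ratio of rno-miR-92b was below 0 in 14 of 15 settings, from -1.49 to 0.03, the exception being scaling to the 5S rRNA probes; it did not reach 1.3-fold there, without normalization or with the calibration spikes. The log2 ratio of rno-miR-93 was below 0 in 12 of 15 settings, from -0.79 to 0.97, and that of rno-miR-25 in 12, from -0.63 to 0.89; each was counted as lower in 8. The 3 exceptions were the same for both: no normalization, the 5S rRNA probes and the calibration spikes.

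Subtracting the median of the 150 detected miRNAs under the same setting takes out a constant difference in brightness. No normalization and the 4 constant scalings then give the same value, so that the 15 settings hold 11 distinct ones. For members other than rno-miR-92b, the setting without the dim spot of that probe nearly repeats the loess. Relative to that median, rno-miR-92a and rno-miR-106b were above it in 11 of 11 and rno-miR-92b below it in 11. The same held for rno-miR-19b, above it in 11 by 0.13 to 1.32, though its vehicle signal was not well above background. For the others the distance ranged from 0.48 to 1.09 for rno-miR-92a, from 0.09 to 0.74 for rno-miR-106b and from -1.08 to -0.48 for rno-miR-92b. Both rno-miR-93 and rno-miR-25 were below the median in 10 of 11, and the exception for both was the value shared by the constant scalings, 0.10 and 0.02 above it. The members rno-miR-17 and rno-miR-20a were above it in 9 and 3 of 11.

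**Figure D2:**
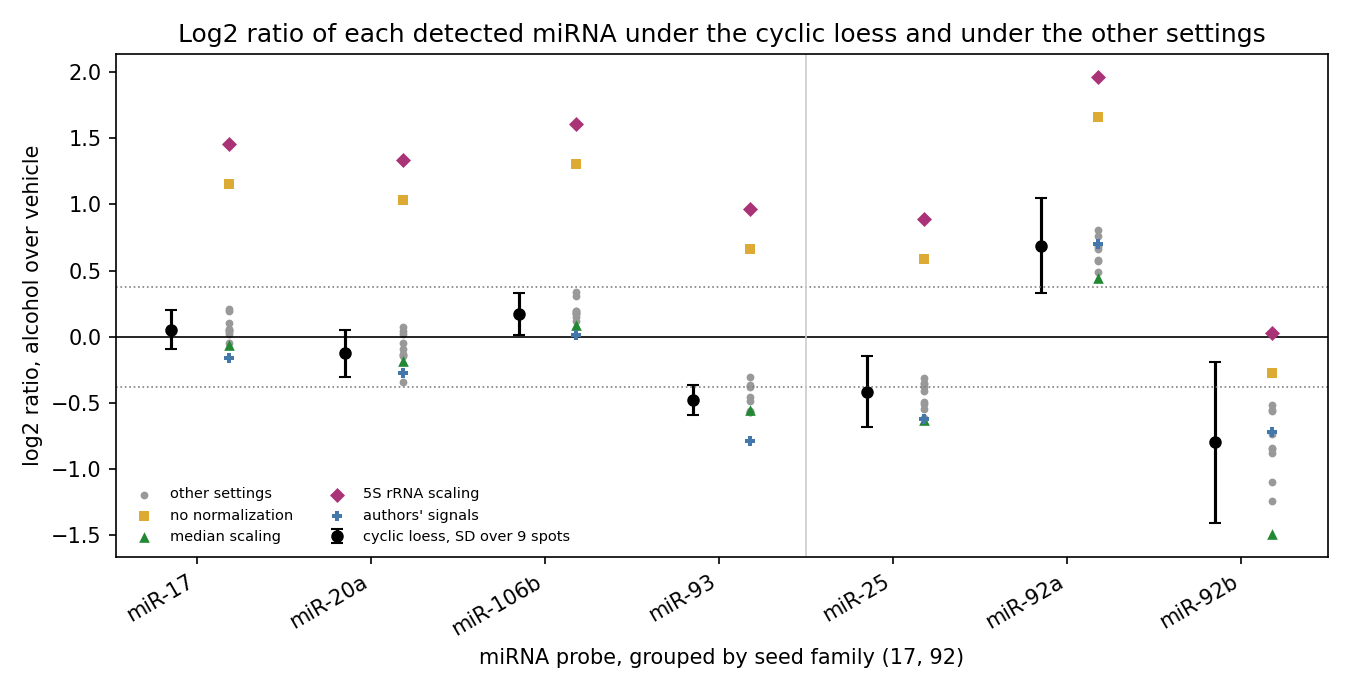
Log2 ratio, alcohol over vehicle, of the 7 members detected on both arrays after the cyclic loess (black, with the SD over 9 spots) and under the other 14 settings (grey and coloured), with dotted lines at 1.3-fold in either direction. The ratios of rno-miR-92a lie above 0 in 15 of 15 settings, from 0.45 to 1.96, while rno-miR-93 and rno-miR-25 lie below 0 in 12 and above it in the other 3.

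By seed family, the median log2 ratio of the 4 members of the 17 family was -0.04 after the loess and 1.10 without normalization, against -0.07 and 0.57 for all 150 detected miRNAs. For the 3 members of the 92 family it was -0.41 and 0.59. The 17 family thus stood close to the median of detected miRNAs after the loess and above it without normalization, and the 92 family below it after the loess and close to it without normalization. The distance between the highest and lowest member was 0.65 in the 17 family and 1.48 in the 92 family. Over the 150 detected miRNAs the SD of the log2 ratio was 0.67 after the loess. Whether a shared seed goes with a shared ratio was not tested. By cluster, the 3 detected members of the 6 in miR-17-92 had a median of 0.05 after the loess and 1.16 without normalization, and the 3 of miR-106b-25 had -0.41 and 0.66. The members of miR-17-92 spanned 0.81, from rno-miR-20a to rno-miR-92a, and those of miR-106b-25 spanned 0.65, from rno-miR-93 to rno-miR-106b. A median over 3 or 4 probes describes these arrays only.

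Members that differ by few bases allowed a comparison within an array pair that a constant scaling does not move. Substitutions are given with the base of the miRNA named first, its position counted from 1 at the 5′ end, and the base of the miRNA named second. From rno-miR-92a to rno-miR-92b the substitutions were U10C and G21C, with 1 further base at the 3′ end, and their GC content was 57.1% and 63.6%. The log2 ratio of rno-miR-92a was 1.48 above that of rno-miR-92b, against a combined SD over spots of 0.71, and was the higher in 11 of 11 distinct settings, by 1.14 to 1.94. From rno-miR-25 to rno-miR-92a the substitutions were C1U, U14C and U18C, with 1 base fewer at the 3′ end, and the log2 ratio of rno-miR-92a was the higher by 1.10, with a combined SD of 0.45 and a range of 1.01 to 1.32 over the settings. The ratios of rno-miR-25 and rno-miR-92b differed by 0.38 after the loess, less than their combined SD of 0.66, and by 0.05 to 0.86 over the settings, the upper value being that without normalization and with the constant scalings. All 3 members share seed AUUGCAC, and these differences lie outside it.

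In the 17 family, rno-miR-17 and rno-miR-20a differ by C1U and C12U, and their log2 ratios differed by 0.18, within the combined SD of 0.23. Between rno-miR-17 and rno-miR-93, with U10G, A11U, C12U and A13C, the difference was 0.53, above the combined SD of 0.19. The neighbours rno-miR-106b and rno-miR-93 differed by 0.65 with a combined SD of 0.20, and rno-miR-106b was the higher in 11 of 11 distinct settings, by 0.52 to 0.80. Of the miR-17-92 cluster, rno-miR-92a was above rno-miR-17 by 0.64 and above rno-miR-20a by 0.81, with combined SDs of 0.39 and 0.40. Over the settings these differences ranged from 0.28 to 0.86 and from 0.53 to 1.15, so that the first was not above its SD in every setting. In the 19 family, rno-miR-19a and rno-miR-19b differ by U11C alone, yet 0 and 9 of their 9 spots exceeded the limit on the alcohol array. Sharing of signal between near-identical probes was not tested further.

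Relatives of the members on the same arrays were mostly undetected. By name, 8 other probes carried the number of a member or of the miR-106a-363 cluster, and by seed 3 did, 9 in all. Only 1 of the 9, rno-miR-25*, was detected, with 6 of 9 spots on the alcohol array and 0 on the vehicle array. The passenger strands rno-miR-20a* and rno-miR-106b* and the probe rno-miR-17-3p had 0 of 9 spots above the limit on both arrays. The same held for rno-miR-363, which shares the 92 seed and derives from the X-linked cluster, for rno-miR-32, which shares that seed, and for rno-miR-20b-5p, which shares the 17 seed and derives from the X-linked cluster. From rno-miR-17 to rno-miR-20b-5p the substitutions were U10C and C12U, with 2 bases fewer. The X-linked miRNAs with sequences of their own, rno-miR-20b-5p and rno-miR-363, were thus not detected. The 3 sequences that the X-linked cluster shares with chromosome 15 were detected on at least 1 array. From which cluster their signal came was not tested.

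For each detected member the other miRNAs closest in both normalized log2 signals were sought among the 150, a likeness over 2 arrays only that rests on the brightness of different probes, which is not a measure of their relative abundance. Those closest to rno-miR-92a were rno-miR-376b-3p and rno-miR-598-3p, with log2 ratios of 0.77 and 0.58. Closest to rno-miR-92b were rno-miR-433 and rno-miR-382, with -0.60 and -0.61, and closest to rno-miR-17 were rno-miR-425 and rno-miR-146b, with 0.08 and 0.09. For rno-miR-106b, at 0.17, they were rno-miR-410 and rno-miR-17, at 0.36 and 0.05. For rno-miR-20a, at -0.13, they were rno-miR-106b and rno-miR-151*, at 0.17 and -0.25. For rno-miR-93, at -0.48, they were rno-miR-338* and rno-miR-140*, at -0.72 and -0.15. For rno-miR-25, at -0.41, they were rno-miR-344-3p and rno-miR-346, at -0.08 and -0.97. Closeness in both signals by itself limits how far the ratios can differ.

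The tissue label was compared with marker miRNAs. Of 6 brain markers on the arrays the vehicle array detected 5 and the alcohol array 6, with summed normalized signals of 87414 and 101938. Most of the difference between these sums came from rno-miR-9, with 18218 and 29945. The probes rno-miR-9, rno-miR-124, rno-miR-128, rno-miR-132 and rno-miR-137 had 9 of 9 spots above the limit on both arrays. Of these 6, 3 were higher by 1.3-fold or more with alcohol, beside 26.4% of all miRNAs tested: rno-miR-338, rno-miR-137 and rno-miR-9. As rno-miR-338 was not well above background on the vehicle array, its ratio, 3.09-fold higher, is a fitted value and not a bound. The log2 ratio was 0.55 for rno-miR-137 and 0.72 for rno-miR-9. With the median over spots that of rno-miR-9 became 0.03 and no longer reached 1.3-fold. Members of both clusters, rno-miR-92a, rno-miR-25 and rno-miR-93 among them, are also known from blood cells. Of 6 blood cell markers, 1 was detected, rno-miR-150, with a log2 ratio of 0.07, and the list summed to 3521 and 3678. The defining red cell miRNAs rno-miR-451 and rno-miR-144 had 0 of 9 spots above the limit on both arrays. The part of blood cells in the ratios of rno-miR-92a, rno-miR-25 and rno-miR-93 was not tested. The liver marker rno-miR-122 was detected on both arrays with normalized signals of 685 and 153, a log2 ratio of -2.16 after the loess and -1.15 without normalization, and its part in the ratios of the members was not tested. Of 4 muscle markers 1, rno-miR-133a, was detected, on the vehicle array alone, with a summed list signal of 474 and 399.6. In tissue RNA, fewer cells of a type and less RNA per cell cannot be told apart.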

How the data were processed

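The deposited scanner output, spot density as intensity on 1-colour LC Sciences arrays, was used as the authors deposited it, with 3968 spots on each of 2 arrays, 1 vehicle and 1 alcohol. The authors' processed intensity values, linear and normalized between arrays by a cyclic method, served as an alternative (medians 41.2 and 49.3, rank correlation with raw density over the 150 miRNAs 0.996 and 1.00); their background settings are not given in the sources used here. Background was corrected with normexp (offset 50), log2 values were averaged over 9 spots, and arrays were normalized by cyclic loess (span 0.7, 3 iterations) over 349 miRNA probes, with limma 3.58.1 in R 4.3.3 and Python 3.11.15, numpy 2.4.6 and pandas 2.3.3. Detection required 5 of 9 spots above the median of mismatched controls plus 3 median absolute deviations scaled by 1.4826. Calls required a normalized signal of 400 and 1.3-fold. With 1 array per group there were no degrees of freedom, and the median CV over spots, 9.10% on the vehicle and 6.38% on the alcohol array, is technical. The steps were tested on simulated data in which the changes were 2-fold. Smaller changes, such as those of the members after the loess, were not covered.

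All 10 members were named, with relatives by number or seed and, for each member detected on both arrays, the 2 detected miRNAs with the smallest summed distance in normalized log2 signal. Marker lists for brain, blood cells, liver and muscle held 9, 7, 2 and 4 names, of which 6, 6, 1 and 4 were on the arrays. The members and lists were chosen with earlier results of these data known. Sequences were matched to RefSeq GRCr8 by exact identity. Alternatives covered the normalization (none, median of detected miRNAs, 75th percentile of all miRNA probes, quantile, loess on detected miRNAs, 5S rRNA, calibration spikes), the background, the spots used and the thresholds.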

Additional observations from a re-analysis of the deposited data

How the results depend on the processing

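No paired analysis was possible because vehicle and alcohol had 1 array each. The median log2 ratio of the 150 detected miRNAs was -0.07 after the loess, 0.57 without normalization and with the calibration spikes, 0.87 with the 5S rRNA probes, -0.40 with the 75th percentile and -0.65 with their own median. Of the members counted as higher or lower, 3 turned sign, without normalization, with the spikes or with the 5S rRNA probes: the log2 ratio of rno-miR-93 was 0.66 without normalization, 0.67 with the spikes and 0.97 with the 5S rRNA probes, that of rno-miR-25 was 0.59, 0.59 and 0.89, and that of rno-miR-92b was 0.025 with the 5S rRNA probes. Less the median of the same setting, rno-miR-93 was 0.10 above it and rno-miR-25 0.02 above it under these 3 scalings. Among the other members, the log2 ratio of rno-miR-20a was above 0 in 6 of 15 settings, that of rno-miR-17 in 12 and that of rno-miR-19b in 13.

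Under no normalization, the 5S rRNA probes and the spikes, 6 members were at least 1.3-fold higher and 0 lower, in place of 1 and 3; over all miRNAs tested the shares were 66.4% and 6.25% without normalization and with the spikes, and 75.8% and 1.52% with the 5S rRNA probes. The number lower was 1 with the 75th percentile (48% of all miRNAs tested), with no background correction (17.6%) and at 1.5-fold (16.8%), and at 2-fold 0 were higher (8.8%) and 0 lower (4%). For the 17 family the median log2 ratio was 1.10 without normalization, 1.40 with the 5S rRNA probes, 1.10 with the spikes, 0.13 with the 75th percentile, -0.19 from the last 4 spots and -0.22 from the authors' processed signals. For the 92 family it was 0.59, 0.89 and 0.59 in the first 3 of these, for miR-17-92 it was 1.16, 1.46 and 1.16, and -0.16 from the authors' processed signals, and for miR-106b-25 it was 0.66, 0.97 and 0.67, and -0.62 from the authors' processed signals. The constant scalings move every ratio by 1 amount; the cause of the other shifts was not tested. The difference between rno-miR-92a and rno-miR-92b moved by less than its combined SD over spots in all 14 other settings, of which the constant scalings give 1 value, and its direction held in each.

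The limits are those of 2 arrays. Array, scan and group cannot be told apart, and the SD over spots says nothing of rats. The sign of the log2 ratio differed between settings for rno-miR-93, rno-miR-25, rno-miR-92b, rno-miR-20a, rno-miR-17 and rno-miR-19b. That of rno-miR-19a, detected on neither array, differed as well. Members near background, rno-miR-18a, rno-miR-19a and rno-miR-19b, are limited by signal over background, and the limit was higher on the vehicle array.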
